A study of Mus musculus with 30 samples.

Results

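Hearts from C57BL/6J wild-type mice after a sham operation were compared between day 4 and day 2. The members were the 5 sham libraries of each of these days, 10 of the 30 bulk RNA-seq libraries of the study, and the description covers the protein-coding genes. Under isoflurane the chest was opened and the pericardium removed, and in the infarction (MI) animals a coronary artery was then tied. Sham animals went through all of it but the tie, and the other libraries are MI hearts at days 2, 4 and 7 and sham hearts at day 7, with 5 in each group. No hearts without an operation were analysed here, so that the comparison follows the heart from day 2 to day 4 after surgery and not from a resting state. The labels give neither age nor sex, nor which part of the heart was taken, nor whether replicates came from separate animals. The p-values therefore measure the spread between these libraries, which may be technical.

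All libraries of day 2 carry one prefix in their library name, and all libraries of days 4 and 7 carry another. Day and this batch of libraries cannot be told apart, and every difference below is a difference of day or batch. Totals were 11257488 to 13144508 counts at day 2 and 8491949 to 9946022 at day 4, with 18744 to 20251 genes detected. Levels are in CPM, the usual scaling of counts by the library total, which compares a gene between libraries but not genes of different length. A count of 0 allows up to 0.228 to 0.353 CPM by library, counting error only. The libraries had the defining genes of heart muscle: Myh6, the fast myosin heavy chain of the adult mouse heart, ranged from 6764 to 21136 CPM, and Tnnt2, cardiac troponin T, from 6491 to 14240.2 CPM.

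Replicates 2 and 3 stood apart within sham day 4: they held transcripts of lung and fat. Scgb1a1, the secretoglobin of airway club cells, was at 0, 148, 366, 0.101 and 0 CPM in replicates 1 to 5 of day 4 and at most 0.618 CPM at day 2. Sftpc, a surfactant protein of the alveolus, was at 0, 19.7, 44.0, 0 and 0 CPM at day 4, and at day 7 it ranged over 0.126 to 333 CPM. Over the 16 lung markers, of which 14 were tested, the summed level was 374 CPM in replicate 2 and 972 CPM in replicate 3. It was 3.44 to 4.87 CPM at day 2 and 2.12 to 3.52 CPM in replicates 1, 4 and 5 of day 4. At sham day 7 the sum ranged from 2.14 to 689 CPM with a median of 559, so that lung transcripts were not confined to these 2 libraries. The same 2 libraries led in adipocyte genes. The adipokine Adipoq was at 1.80, 28.2, 68.5, 3.02 and 3.996 CPM at day 4 against 1.24 to 3.46 at day 2, and Ucp1, by which brown fat uncouples respiration to make heat, at 0.742, 23.8, 62.1, 0.302 and 4.88 CPM against 0 in every day 2 library. Both libraries also led in Retn, the adipokine resistin, with 0.636, 20.7, 47.8, 0.704 and 1.22 CPM, and in Pck1, a gluconeogenic enzyme that adipocytes use to make glycerol, with 2.01, 16.0, 45.0, 0.603 and 3.33 CPM. Of 11 white adipocyte markers 8 were called higher and 1 lower at day 4 with these libraries. Without replicate 3, 5 were called higher, and without both 1 was. Of 6 tested brown adipocyte markers 2 were called higher and 1 lower, and 0 and 1 without both libraries. The brown markers summed to 392 and 427 CPM in replicates 2 and 3. The sum was 287 to 340 CPM in the other day 4 libraries and 409 to 660 CPM at day 2. None of Scgb1a1, Adipoq, Ucp1, Retn and Pck1 was called without both. Most list counts are therefore given with all libraries and without these 2, and every named gene that was called with all libraries was also called without them in the same direction, unless stated otherwise beside it.

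**Figure D1:**
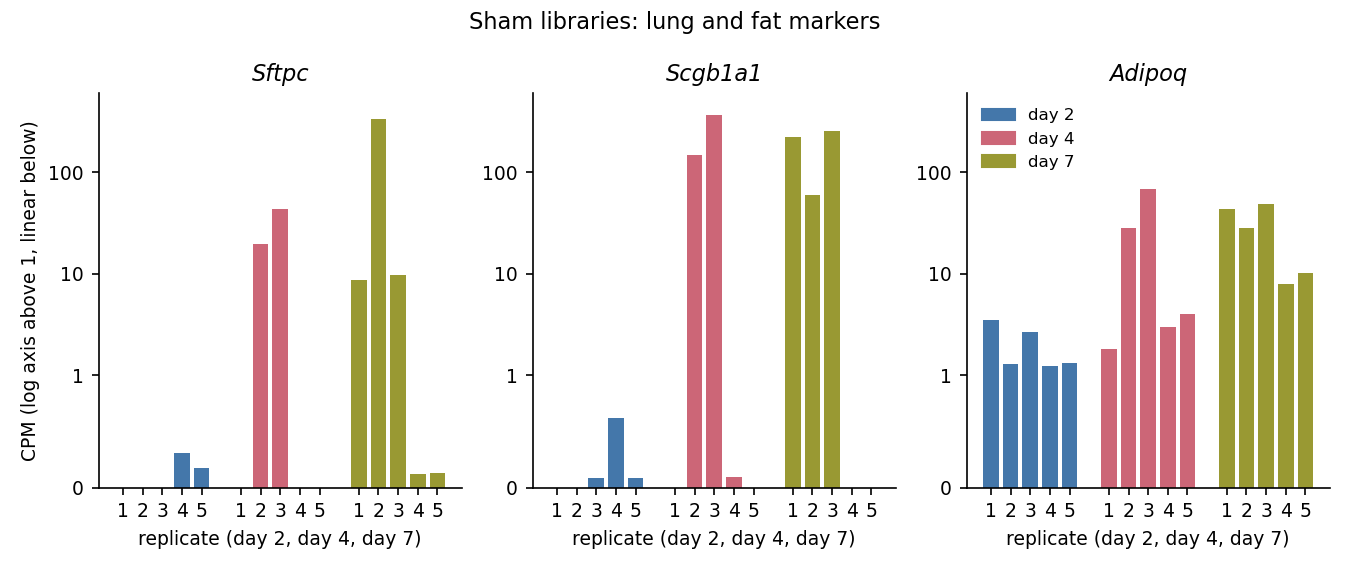
Levels of lung and fat marker genes in the sham libraries in CPM (axis linear below 1 and logarithmic above), each bar a library ordered by replicate within day 2, day 4 and day 7. At day 4 Scgb1a1 reached 148 and 366 CPM in replicates 2 and 3 and at most 0.101 CPM in the other three.

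Surgery through the chest wall sets off a systemic acute phase, in which cytokines such as interleukin 6 drive genes of iron and metal handling, stress hormones act through the glucocorticoid receptor, and innate immune cells enter the tissue. Type I interferon induces a separate set of antiviral genes and the machinery that loads peptides onto MHC class I molecules. Cardiac muscle under load or injury switches on natriuretic peptides and fetal isoforms of the sarcomere, and it draws most of its ATP from fatty acids by way of the nuclear receptor PPARα. Mature red cells carry little RNA, while reticulocytes, the young red cells released from marrow and spleen, still carry globin transcripts.

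Interferon acts on its target genes through the interferon-stimulated response element. The 250 bases upstream of the start sites of Isg15, Ifit3 and Bst2, antiviral genes whose levels are described below, are shown because they hold this element. They are RefSeq sequences of build GRCm38.p6, written 5′ to 3′ on the strand of the gene, with matches on either strand to the spaced pair GAAA, any 2 bases, GAAA in capitals (overlapping matches were counted separately).
Isg15, chr4:156200819-156201068, minus strand: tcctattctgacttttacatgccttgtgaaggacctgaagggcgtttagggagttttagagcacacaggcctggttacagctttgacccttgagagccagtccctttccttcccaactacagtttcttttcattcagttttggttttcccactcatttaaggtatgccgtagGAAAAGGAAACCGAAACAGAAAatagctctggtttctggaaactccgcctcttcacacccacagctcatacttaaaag
Ifit3, chr19:34583279-34583528, plus strand: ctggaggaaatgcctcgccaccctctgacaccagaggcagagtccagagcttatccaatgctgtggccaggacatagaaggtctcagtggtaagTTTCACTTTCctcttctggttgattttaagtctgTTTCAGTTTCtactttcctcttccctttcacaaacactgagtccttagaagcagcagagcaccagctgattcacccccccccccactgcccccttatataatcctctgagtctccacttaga
Bst2, chr8:71537473-71537722, minus strand: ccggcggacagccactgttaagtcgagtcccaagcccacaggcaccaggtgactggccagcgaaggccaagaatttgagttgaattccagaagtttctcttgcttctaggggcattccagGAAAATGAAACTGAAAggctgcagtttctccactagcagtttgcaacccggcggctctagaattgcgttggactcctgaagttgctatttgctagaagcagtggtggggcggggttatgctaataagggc
The 3 overlapping matches of Isg15 began 78, 72 and 66 bases before the start site, the 2 separate matches of Ifit3 156 and 122 bases, and the 2 overlapping matches of Bst2 130 and 124 bases. Of the 22 interferon list genes with a promoter sequence 11 held a match, 50%, against 3.52% of all 16317 genes with one. A match in this window is a description of the sequence, not a site of binding.

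Between day 2 and day 4, 1551 of 13631 tested protein-coding genes were called higher (11.4%) and 1434 lower (10.5%), in all 21.9% of those tested. A gene is said to be called where its p-value, adjusted by Benjamini and Hochberg across the tested genes, was under 0.05 in edgeR's 2-sided quasi-likelihood test. The median log2 fold change of all tested protein-coding genes was 0.02. Rises of at least 2-fold were called in 305 genes and falls of that size in 131. The 5 libraries of day 4 did not overlap those of day 2 in 14.3% of all tested genes and in 57.0% of the called ones. Without replicates 2 and 3 of day 4, 858 genes were called higher (6.2%) and 796 lower (5.75%) of 13846 tested. Both fits called 1550 genes in the same direction, 804 of them higher and 746 lower. Gene lists are described below by how many members were called, to be read against these shares.

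**Figure D2:**
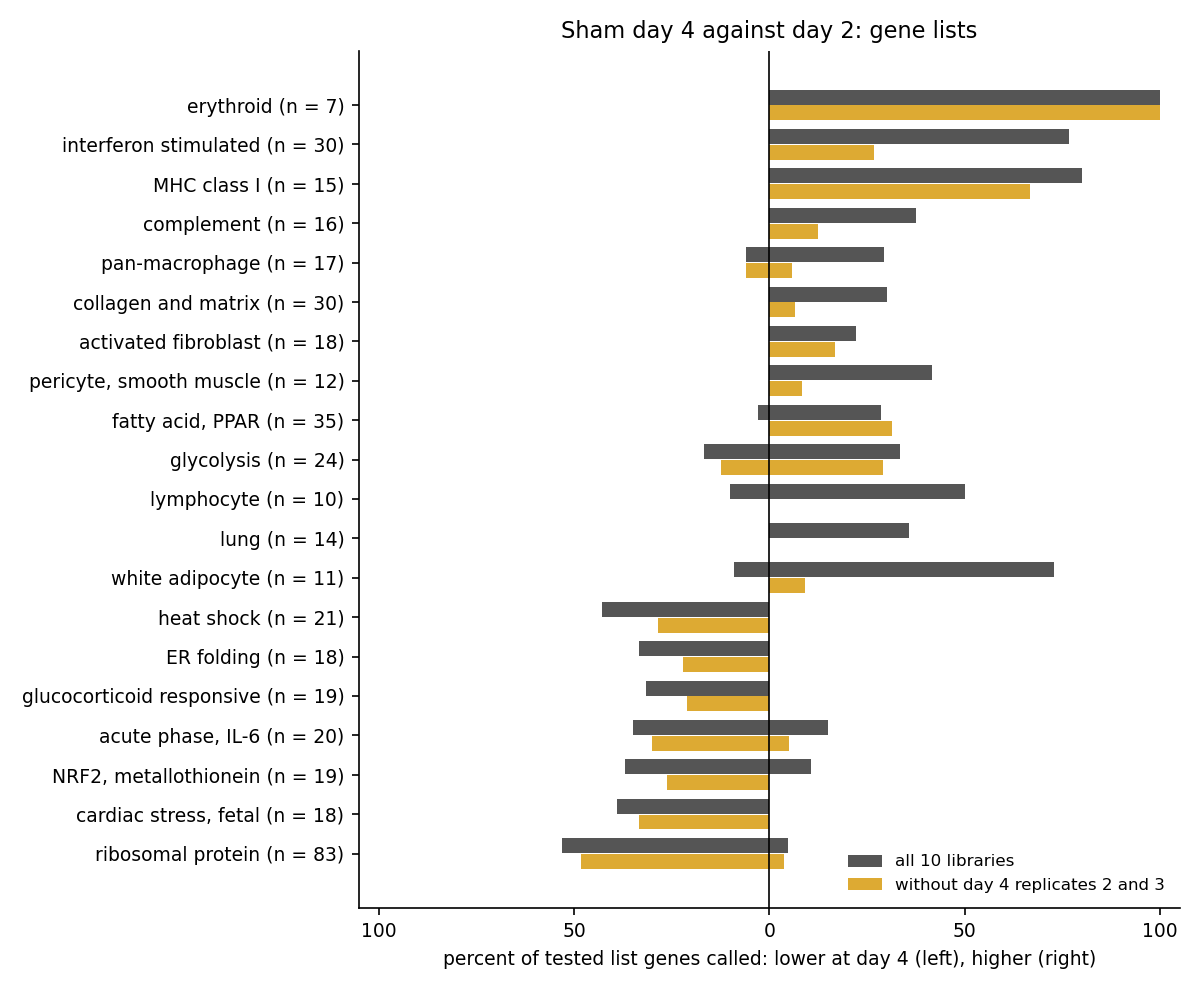
Percent of the tested genes of each list that were called lower (left) or higher (right) at sham day 4 against day 2, with all 10 libraries (grey) and without replicates 2 and 3 of day 4 (yellow). Erythroid (7 of 7), MHC class I (12 of 15) and interferon-stimulated (23 of 30) genes extend far to the right with all libraries, and heat shock (9 of 21) and cardiac stress genes (7 of 18) to the left.

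Genes of the red cell lineage rose together. All 7 tested erythroid genes were called higher at day 4, with all libraries and without replicates 2 and 3, with a median log2 fold change of 3.22. Hba-a1, an alpha globin gene (ENSMUSG00000069919, chr11:32283511-32284465, GRCm38), was at 38.1, 69.1, 48.8, 37.9 and 19.7 CPM in the 5 libraries of day 2 and at 921, 323, 332, 262 and 178 CPM at day 4. Hbb-bs, the adult beta globin gene (ENSMUSG00000052305, chr7:103826534-103828096), went from 82.1, 142, 167, 97.0 and 71.6 CPM to 1333, 478, 494, 372 and 303 CPM. For both genes the days did not overlap, and replicate 1 of day 4 was the highest of all. The rise was 9.31-fold for Hba-a1 (log2 fold change 3.22 ± 0.47 SE, edgeR adjusted p = 1.17e-05) and 5.24-fold for Hbb-bs (2.39 ± 0.44, adjusted p = 2.66e-04). Hba-a2 (3.50 ± 0.47, adjusted p = 3.28e-06) and Hbb-bt (2.63 ± 0.50, adjusted p = 3.69e-04) rose likewise. Hba-a1 and Hba-a2 are near-identical copies, so that the split of reads between them is uncertain.

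Alas2, the first enzyme of heme synthesis in red cell precursors (ENSMUSG00000025270, chrX:150547375-150570638), was at 5.77, 8.14, 5.47, 6.49 and 3.17 CPM at day 2 and 95.3, 25.9, 25.8, 20.7 and 15.3 CPM at day 4, without overlap (6.18-fold, log2 2.63 ± 0.49, edgeR adjusted p = 3.14e-04). Slc4a1, the anion exchanger of the red cell membrane, was at or under 0.266 CPM at day 2 and at 0.555 to 7.95 CPM at day 4 (adjusted p = 0.00788). The summed level of the list was 121 to 298 CPM at day 2, 722 to 3499 at day 4 and 796 to 1582 at day 7. Without replicate 1 of day 4 the erythroid genes named here were still called higher. In MI hearts 5 of the 7 were called higher from day 2 to day 4, and no erythroid gene was called in the difference between sham and MI (1 without replicate 2 of MI day 2). In whole tissue, more cells of a type and more RNA per cell cannot be told apart, here and for every list below, and how much blood was left in each heart was not tested. Platelet genes gave no call in any of 7.

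**Figure D3:**
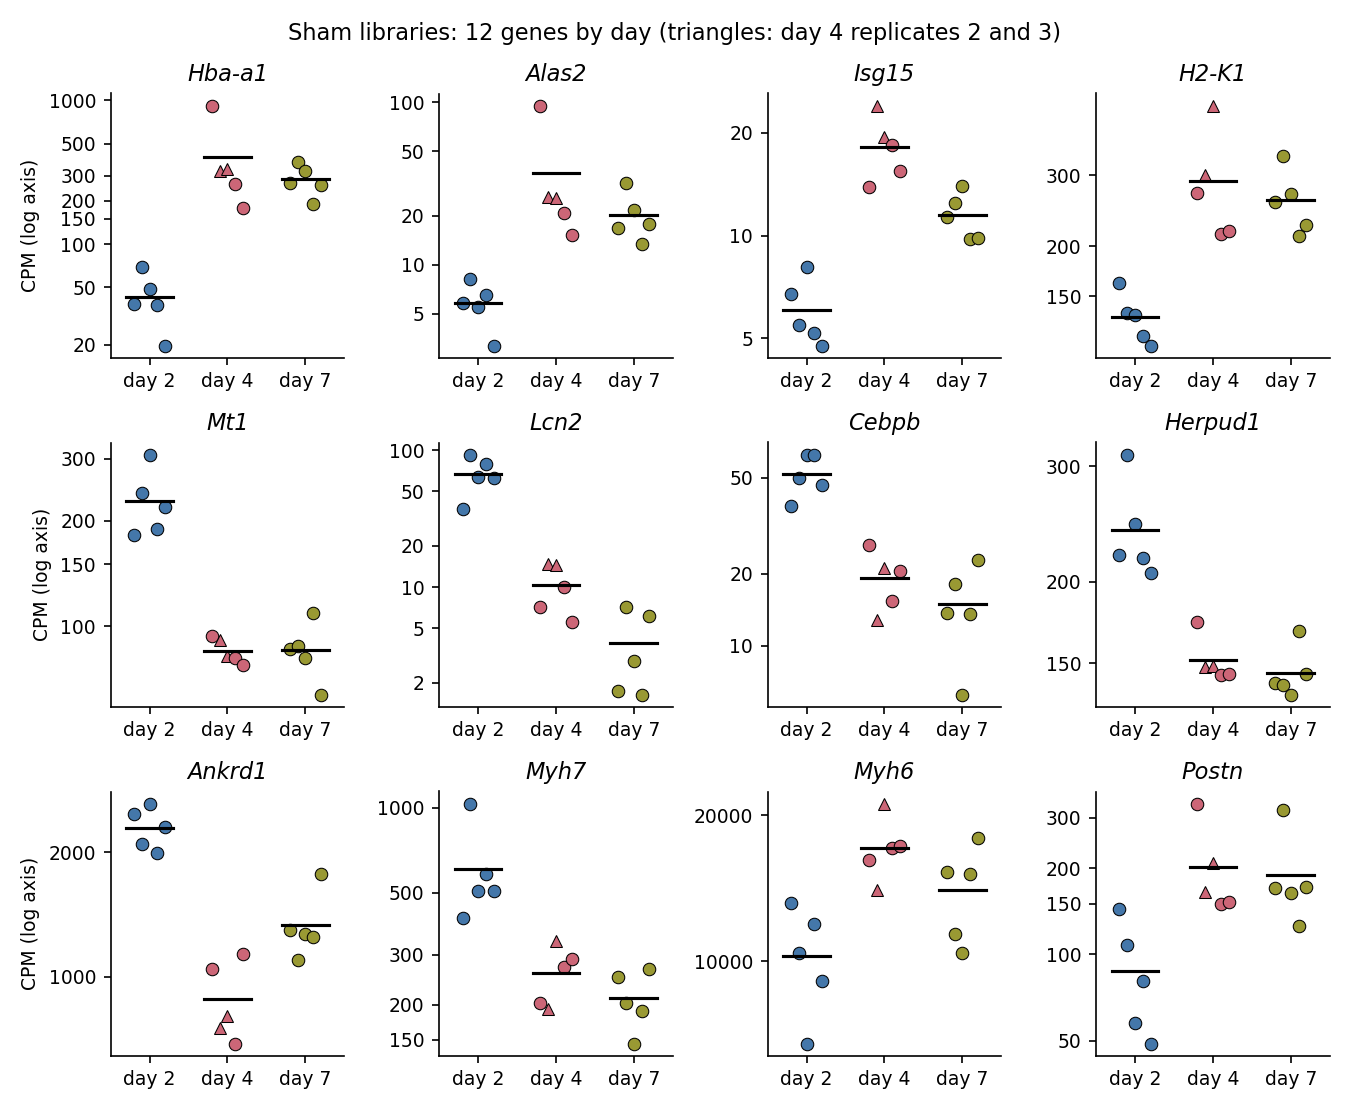
Levels of 12 genes in CPM on logarithmic axes in the sham libraries of days 2, 4 and 7, one point per library, with triangles for replicates 2 and 3 of day 4. Hba-a1, Alas2, Isg15 and H2-K1 sit higher at day 4 than at day 2 in every library, and Mt1, Lcn2, Cebpb, Herpud1, Ankrd1 and Myh7 lower in every library.

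Of 30 tested interferon-stimulated genes, 23 were called higher and none lower, with a median log2 fold change of 0.60. Without replicates 2 and 3, 8 were called, and the median was 0.48. Isg15, a ubiquitin-like protein attached to viral and host proteins (ENSMUSG00000035692, chr4:156199424-156200818), was at 6.75, 5.48, 8.11, 5.18 and 4.76 CPM at day 2 and 13.9, 24.1, 19.4, 18.4 and 15.4 CPM at day 4. The lowest library of day 4 lay above the highest of day 2. The rise was 2.97-fold (log2 1.57 ± 0.25, edgeR adjusted p = 1.84e-05), and 1.41 on the log2 scale without replicates 2 and 3 (adjusted p = 6.88e-04).

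Ifit3, an antiviral protein that binds viral RNA complexes (ENSMUSG00000074896, chr19:34583531-34588731), went from 15.4, 13.7, 14.9, 12.7 and 8.81 CPM to 19.4, 39.0, 39.3, 34.2 and 31.9 CPM (log2 1.30 ± 0.24, edgeR adjusted p = 1.79e-04). Ifit2, of the same family, went from 23.3, 18.9, 21.8, 17.5 and 15.4 CPM to 28.6, 27.8, 30.1, 39.4 and 36.5 CPM (log2 0.73 ± 0.17, adjusted p = 0.00156). Bst2, a membrane protein that tethers budding virions, went from 29.8, 23.6, 28.1, 18.5 and 19.5 CPM to 40.4, 55.1, 55.7, 48.3 and 39.6 CPM (log2 0.98 ± 0.19, adjusted p = 3.45e-04). In all 3 genes the days did not overlap, and all were still called without replicates 2 and 3. Mx1, an antiviral GTPase, was low, at 0.353 to 0.854 CPM at day 2 and at 0.848 to 4.004 CPM at day 4, and the days overlapped through replicate 1 of day 4 (0.848 CPM). Replicate 1 was also the lowest day 4 library for Isg15 and Ifit3. Irf7, the factor that amplifies interferon induction (log2 1.16 ± 0.29, adjusted p = 0.00421), rose as well, but was not called without replicates 2 and 3 (0.87, adjusted p = 0.0725). Among the 11 list genes with the response element in the window shown above 10 were called higher, with a median of 0.84, and among the 11 without it 7 were, with a median of 0.45. In MI hearts 28 of the 30 genes were called higher from day 2 to day 4, with a median of 0.97, and none was called in the difference between sham and MI (up to 2 with single libraries left out). At sham day 7 Isg15 was at 9.80 to 14.0 CPM.

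Of 15 tested genes of MHC class I presentation, a list written after the data were seen, 12 were called higher and none lower (median 0.92), and 10 without replicates 2 and 3. H2-K1, a classical class I heavy chain that presents peptides to CD8 T cells (ENSMUSG00000061232, chr17:33996017-34000347), was at 162, 136, 135, 119 and 113 CPM at day 2 and 272, 300.5, 448, 214 and 218 CPM at day 4. H2-D1, the other classical heavy chain of this strain, went from 269, 223, 221, 187 and 169 CPM to 411, 422, 587, 310.1 and 331 CPM. Neither overlapped between days, and replicate 3 was the highest library for both. The rises were 2.13-fold for H2-K1 (log2 1.09 ± 0.16, edgeR adjusted p = 6.51e-06) and 1.89-fold for H2-D1 (0.92 ± 0.14, adjusted p = 5.44e-06). Tap1, a subunit of the peptide transporter, rose by 0.85 ± 0.21 on the log2 scale (adjusted p = 0.00369), and Nlrc5, the transactivator of class I genes, by 0.96 ± 0.24 (adjusted p = 0.00364). The nonclassical H2-Q6 (1.53 ± 0.30) and H2-Q7 (1.58 ± 0.28) were among the 10 largest rises of genes named by size, and belong to 1 family of similar genes. The near-copy H2-Q5 of H2-Q7 went from 1.15 to 3.33 CPM, and with it added H2-Q7 rose by 1.57 (adjusted p = 6.64e-05). B2m, the invariant light chain, differed by 0.10 ± 0.14 and was not called (adjusted p = 0.651), and by -0.07 without replicates 2 and 3. Of 7 MHC class II genes 1 was called higher, none without replicates 2 and 3, and 0 to 4 when single libraries were left out.

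Genes of the acute phase divided. Of 20 tested, 7 were called lower and 3 higher. Without replicates 2 and 3, 6 were called lower and 1 higher. Without replicate 5 of day 4, 4 were called lower, and 5 and 1 were called higher without replicate 1 and without replicate 3. Lcn2, the siderophore-binding lipocalin (ENSMUSG00000026822, chr2:32384633-32388252), was at 37.2, 93.0, 63.8, 79.3 and 62.8 CPM at day 2 and 7.10, 14.7, 14.6, 10.1 and 5.55 CPM at day 4. Every library of day 4 lay below every library of day 2, and at day 7 the level was 1.63 to 7.18 CPM. The log2 fold change was -2.72 ± 0.46 (edgeR adjusted p = 9.95e-05), and -3.13 without replicates 2 and 3. Cebpb, a transcription factor of the acute phase (ENSMUSG00000056501, chr2:167688915-167690418), went from 38.3, 50.1, 62.1, 62.6 and 46.8 CPM to 26.3, 12.8, 21.1, 15.4 and 20.4 CPM, again without overlap (log2 -1.47 ± 0.22, adjusted p = 1.49e-05). It overlaps Tmem189 on the opposite strand, which was at 37.2 and 26.9 CPM on average. Serpina3n, which encodes a protease inhibitor, went from 128, 269.8, 136, 128 and 85.1 CPM to 61.4, 71.4, 101, 56.3 and 33.3 CPM, with the highest day 4 library above the lowest of day 2 (log2 -1.24 ± 0.31, adjusted p = 0.00485). Hp, haptoglobin, which fat also makes, went the other way, with 33.4, 151, 377, 35.7 and 25.5 CPM at day 4 against 13.6 to 27.4 at day 2 (log2 2.51 ± 0.66, adjusted p = 0.00657). The 2 highest libraries were the fat-bearing ones, and the difference was 1.57 and not called without replicate 3, and 0.62 without both.

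Of 19 NRF2 and metallothionein genes 7 were called lower and 2 higher (median -0.23), and 5 lower and 0 higher without replicates 2 and 3. Mt1, a metallothionein that binds zinc (ENSMUSG00000031765, chr8:94179082-94180327), was at 182, 239, 309, 189.9 and 219 CPM at day 2 and 93.5, 91.0, 82.4, 81.0 and 77.5 CPM at day 4. Mt2, its neighbour on the chromosome (ENSMUSG00000031762, chr8:94172664-94173568), went from 42.6, 69.5, 86.0, 45.2 and 53.3 CPM to 25.5, 15.4, 14.8, 14.1 and 12.1 CPM. In neither gene did the days overlap. The log2 fold changes were -1.44 ± 0.22 for Mt1 (edgeR adjusted p = 1.12e-05) and -1.88 ± 0.34 for Mt2 (adjusted p = 1.91e-04), and at day 7 Mt1 was at 63.8 to 109 CPM. Nqo1, a quinone reductase and a standard NRF2 target, fell from 58.7, 84.8, 89.4, 88.4 and 77.4 CPM to 35.2, 46.5, 41.3, 47.5 and 52.3 CPM, without overlap (log2 -0.86 ± 0.12, adjusted p = 3.87e-06).

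Of 19 glucocorticoid-responsive genes 6 were called lower and none higher (median -0.33), and 4 without replicates 2 and 3. Mt1, Mt2 and Lcn2 are among them, so that this count overlaps those of the lists above. Fkbp5, a receptor co-chaperone and a sensitive glucocorticoid target, did not differ beyond its spread, at 25.7 ± 3.83 CPM (SD, n = 5) at day 2 and 26.2 ± 5.87 at day 4 (log2 0.01 ± 0.23, edgeR adjusted p = 0.989). Klf15, a glucocorticoid-induced regulator of amino acid use in muscle that was not on this list, fell from 48.4, 77.1, 57.1, 72.1 and 64.1 CPM to 37.0, 47.9, 42.3, 46.9 and 45.4 CPM (log2 -0.56 ± 0.11, adjusted p = 3.55e-04). In MI hearts Klf15 changed by -1.30, and the difference between sham and MI was called (0.74 ± 0.16, adjusted p = 0.00662).

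Of 21 heat shock and cytosolic chaperone genes 9 were called lower and none higher (median -0.44), and 6 without replicates 2 and 3. Cryab, the small heat shock protein that protects desmin and titin in muscle (ENSMUSG00000032060, chr9:50751325-50756636), was at 2349, 2096, 2637, 2264 and 2152 CPM at day 2 and 1287, 1443, 1244, 1440.2 and 1341 CPM at day 4, without overlap (log2 -0.79 ± 0.10, edgeR adjusted p = 9.75e-07). Hspa8, the constitutive HSP70, went from 763, 469, 563, 623 and 508 CPM to 465, 342, 367, 333 and 332 CPM, the highest of day 4 being replicate 1 (log2 -0.69 ± 0.14, adjusted p = 5.19e-04). Dnajb1, an HSP40 induced by heat, went from 54.0, 30.4, 97.6, 42.3 and 48.9 CPM to 35.5, 24.6, 29.4, 26.2 and 23.2 CPM, with overlap. Its change was -1.001 ± 0.29 (adjusted p = 0.0139), and -0.67 and not called without replicate 3 of day 2, its highest library. Nor was it called without replicates 2 and 3 of day 4 (-0.94, adjusted p = 0.0847). The inducible HSP70 gene Hspa1a spread widely at day 2, with 41.9, 2.81, 27.8, 6.87 and 8.20 CPM, against 11.9, 3.22, 3.77, 2.71 and 4.22 CPM at day 4, and was not called (log2 -1.77 ± 0.85, adjusted p = 0.132). Hspa1a and Hspa1b are near-identical, so that their split is uncertain. Dnaja1, another HSP40, was called lower as deposited (-1.13), but with its 4 near-copies summed into it the change was -0.18 and not called (adjusted p = 0.650).

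In the endoplasmic reticulum, 6 of 18 protein folding genes were called lower and none higher, and all 18 had a negative log2 fold change (median -0.25). When replicates 2 and 3 were left out, 4 were called. Herpud1, which helps clear misfolded proteins from that compartment (ENSMUSG00000031770, chr8:94386438-94395377), went from 219.9, 313, 245, 217 and 206 CPM to 173, 148, 148, 144 and 144 CPM, without overlap. The log2 fold change was -0.68 ± 0.12 (edgeR adjusted p = 8.46e-05), and in MI hearts it was -0.92 (adjusted p = 4.94e-07).

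Of 18 muscle stress and fetal genes 7 were called lower and none higher (median -0.68), and 6 without replicates 2 and 3. Bmp10, described with the atrial genes below, is on both lists, so that their counts overlap. Ankrd1, a stretch-responsive repeat protein of the sarcomere and nucleus (ENSMUSG00000024803, chr19:36111961-36120099), was at 2468, 2092, 2620.1, 1990.0 and 2293 CPM at day 2 and 1045, 753, 802, 689 and 1133 CPM at day 4. Myh7, the slow fetal myosin heavy chain (ENSMUSG00000053093, chr14:54970684-54994626), went from 404, 1035, 507, 582 and 506 CPM to 203, 192, 336, 271 and 291 CPM, and replicate 2 of day 2 was far above the rest. In both genes every day 4 library lay below every day 2 library. The log2 fold changes were -1.40 ± 0.16 for Ankrd1 (edgeR adjusted p = 4.69e-08) and -1.25 ± 0.30 for Myh7 (adjusted p = 0.00300). Nmrk2, a nicotinamide riboside kinase of stressed muscle, changed by -1.70 ± 0.34 (adjusted p = 5.19e-04), without overlap of the days. Nmrk2 overlaps the antisense gene Atcayos, at 54.0 and 74.9 CPM on average, and since the strand setting of the counting is not given, reads of the 2 genes may be mixed. The same holds for Myh7 and its antisense Mhrt, at 27.0 and 26.8 CPM, and for Cebpb and Tmem189.

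The natriuretic peptide genes overlapped between days. Nppb was at 631, 284, 564, 288 and 455 CPM at day 2 and 285, 198, 97.4, 211 and 264 CPM at day 4 (log2 -1.08 ± 0.26, edgeR adjusted p = 0.00259). Nppa, the atrial peptide, was at 1766, 1256, 1756, 1420.5 and 1870.1 CPM at day 2 and 535, 999.8, 1284, 662 and 903 CPM at day 4 (log2 -0.91 ± 0.18, adjusted p = 3.79e-04). Without replicates 2 and 3 of day 4, Nppa changed by -1.20 and Nppb by -0.80, and both were still called. Nppa was at 1095 to 1518 CPM at sham day 7. Beside Nppa, Bmp10, a growth factor of atrial muscle (ENSMUSG00000030046, chr6:87428994-87437677), went from 141, 151, 93.2, 151 and 119 CPM to 15.4, 22.03, 66.2, 2.21 and 41.3 CPM (log2 -2.22 ± 0.51, adjusted p = 0.00225) and was at 74.2 to 122 CPM at day 7. Of 10 atrial and conduction genes these 2 were called lower, and 3 genes without replicates 2 and 3. Atrial myosin light chains Myl7 and Myl4 differed by -0.72 and -0.75 (adjusted p = 0.0848 and 0.0843). The summed level of the 10 genes was 2726 to 4100.3 CPM at day 2 and ranged from 1283 to 3140.0 CPM at day 4, and the part of atrial tissue in these results was not tested.

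Myh6 was at 13198, 10388, 6764, 11929 and 9085 CPM at day 2 and 16202, 14011, 21136, 17091 and 17272 CPM at day 4 (ENSMUSG00000040752, chr14:54941921-54966927; log2 0.72 ± 0.20, edgeR adjusted p = 0.0102). Tnnt2 went from 6491, 7181, 7534, 6912 and 7256 CPM to 10272, 13192, 11031, 14240.2 and 12397 CPM (ENSMUSG00000026414, chr1:135836354-135852260; log2 0.77 ± 0.12, adjusted p = 1.75e-05). Neither overlapped between days. Pln, phospholamban, the inhibitor of the calcium pump, went the other way, from 9716, 10789, 12894, 11464 and 12412 CPM to 6679, 7619, 5701, 7715 and 8486 CPM, also without overlap (log2 -0.68 ± 0.16, adjusted p = 0.00178). Atp2a2, the calcium pump itself, differed by 0.03 ± 0.15 (adjusted p = 0.895). Of 22 genes of contraction and calcium handling 4 were called higher and 1 lower, with all libraries and without replicates 2 and 3.

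Among genes of fatty acid use and PPARα, 10 of 35 were called higher and 1 lower (median 0.21), and 11 higher without replicates 2 and 3. Without replicate 1 of day 4, 6 were. Fabp3, the fatty acid binding protein of heart muscle (ENSMUSG00000028773, chr4:130308595-130315463), was at 327, 372, 440.0, 381 and 417 CPM at day 2 and 861, 732, 542, 716 and 581 CPM at day 4, without overlap. The rise was 1.75-fold (log2 0.81 ± 0.14, edgeR adjusted p = 8.24e-05). Its near-copy Fabp3-ps1 went from 2138 to 3419 CPM, and with this pseudogene summed into Fabp3 the rise was 0.68 (adjusted p = 0.00274). Slc25a20, the carnitine carrier of the mitochondrial membrane, went from 199, 226, 248, 226 and 253 CPM to 424, 336, 261, 334 and 259 CPM (log2 0.47 ± 0.13, adjusted p = 0.00935). Acadvl, the first dehydrogenase of long-chain fatty acid oxidation, rose by 0.51 ± 0.14 (adjusted p = 0.00774).

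Replicate 1 of day 4 stood above the other libraries in several of these genes. Pdk4, the kinase that shuts pyruvate out of the mitochondrion and a PPARα target, was at 1966, 302, 267, 341 and 417 CPM at day 4 against 312 to 449 CPM at day 2. It was not called (0.71 ± 0.48, edgeR adjusted p = 0.294), and its sign turned without replicate 1 (-0.28). Acot2, a mitochondrial thioesterase, was at 275, 104, 92.3, 117 and 99.4 CPM at day 4 and 59.8 to 75.2 at day 2, and the other 4 libraries also lay above day 2 (log2 1.04 ± 0.26, adjusted p = 0.00412). Ucp3, the muscle uncoupling protein, was at 125, 46.4, 45.0, 55.3 and 61.7 CPM against 18.8 to 35.8 (log2 1.18 ± 0.36, adjusted p = 0.0171). Without replicate 1 its change was 0.83 and not called (adjusted p = 0.0830). The same library was the highest in the globin genes and Alas2.

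Genes of the respiratory chain and the citric acid cycle gave few calls, with 2 of 28 called higher and 2 lower, with all libraries and without replicates 2 and 3. Cycs, cytochrome c, was one of the risers and has near-copies. It rose by 1.30 ± 0.18 as deposited and by 1.022 with its 4 near-copies (adjusted p = 9.00e-06). The genes that fell were the muscle isoforms Cox7a1, from 526, 482, 838, 485 and 676 CPM to 264, 366, 303, 345 and 302 CPM, and Cox6a2, from 1270.1, 1526, 1863, 1482 and 1611 CPM to 977, 1174, 876, 1112 and 1067 CPM. Both are small subunits of cytochrome c oxidase, neither overlapped between days, and the changes were -0.95 ± 0.18 (adjusted p = 1.94e-04) and -0.59 ± 0.13 (adjusted p = 0.00113). A further muscle subunit, Cox8b, listed as a brown fat marker, changed by -0.86 ± 0.16 (adjusted p = 1.44e-04).

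Of 24 glycolytic genes 8 were called higher and 4 lower as deposited, and 7 and 3 without replicates 2 and 3. Pkm, pyruvate kinase (ENSMUSG00000032294, chr9:59656368-59679375), was at 824, 817, 640.5, 816 and 662 CPM at day 2 and 1339.5, 1395, 1443, 1469.5 and 1325 CPM at day 4, without overlap (log2 0.87 ± 0.09, edgeR adjusted p = 2.13e-08). Pfkfb1, which makes the fructose bisphosphate that activates phosphofructokinase, went from 7.11, 7.84, 7.86, 7.57 and 7.76 CPM to 18.9, 13.9, 16.1, 12.2 and 16.1 CPM (log2 0.99 ± 0.17, adjusted p = 4.43e-05). Pgk1, phosphoglycerate kinase, was called lower as deposited (-0.93), but its identical copy Pgk1-rs7 went from 8.51 to 20.6 CPM, and summed the change was -0.13 (adjusted p = 0.326). Eno1, enolase, was called lower as deposited (-0.75), while its near-copies Gm4735, a pseudogene, and Eno1b went from 18.8 to 61.8 CPM and from 11.7 to 22.8 CPM. With both added to Eno1 its sign turned, and it was called higher (0.60, adjusted p = 0.00468), so that no direction of Eno1 is given. Of 14 hypoxia genes 1 was called lower, with and without replicates 2 and 3: Bnip3, a mitophagy receptor, changed by -0.84 ± 0.17 (adjusted p = 5.19e-04) and by -0.67 with its near-copy.

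Of 30 collagen and matrix genes 9 were called higher and none lower (median 0.43), 3 without replicate 3 of day 4 and 2 without replicates 2 and 3. Fn1, fibronectin (ENSMUSG00000026193, chr1:71585520-71653200), was at 128, 121, 47.7, 69.6 and 56.0 CPM at day 2 and 238, 168, 434, 139.7 and 216 CPM at day 4, without overlap (log2 1.46 ± 0.33, edgeR adjusted p = 0.00165). Col1a1 and Col1a2, the chains of type I collagen, rose by 1.09 ± 0.31 (adjusted p = 0.0109) and 1.10 ± 0.29 (adjusted p = 0.00549). Col1a1 was at 427, 463, 204, 292 and 174 CPM at day 2 and 749, 559.9, 1170.4, 501 and 424 CPM at day 4, so that the days overlapped. Without replicate 3, its highest library, the change of Col1a1 was 0.85 and not called. Eln, elastin, changed by 1.12 (adjusted p = 0.0133) and by 0.82 without replicate 3, where it was not called. Col3a1, type III collagen, was called with all libraries (0.81, adjusted p = 0.0318) but not without any one of replicates 3, 4 and 5 of day 2 or 1 and 3 of day 4, with changes down to 0.63. Without both replicates 2 and 3 of day 4 none of Col1a1, Col1a2, Col3a1 and Eln was called, with changes of 0.85, 0.86, 0.59 and 0.79. Lung and fat hold collagen-producing fibroblasts too, and the part of these tissues in the result was not tested beyond leaving the 2 libraries out.

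Of 18 markers of activated fibroblasts, 4 were called higher and none lower, 7 when replicate 1 of day 2 or replicate 4 of day 4 was left out, and 3 without replicates 2 and 3. Postn, periostin, the matricellular protein of injured heart (ENSMUSG00000027750, chr3:54361109-54391037), was at 144, 108, 57.6, 80.8 and 48.8 CPM at day 2 and 336, 165, 209, 150.0 and 152 CPM at day 4, without overlap. The rise was 2.28-fold (log2 1.19 ± 0.27, edgeR adjusted p = 0.00207; 1.29 without replicates 2 and 3). Cthrc1, a secreted marker of the activated state (ENSMUSG00000054196, chr15:39076932-39087121), went from 3.64, 5.93, 5.81, 2.78 and 2.56 CPM to 16.3, 12.5, 14.5, 9.35 and 8.33 CPM, also without overlap (1.52 ± 0.29, adjusted p = 3.34e-04). Ltbp2, which binds microfibrils, rose by 1.45 ± 0.32 (adjusted p = 0.00139). Timp1, an inhibitor of metalloproteinases, was at 20.9 to 35.0 CPM at day 2 and at 14.1 to 23.9 CPM at day 4 and was not called (log2 -0.46 ± 0.23, adjusted p = 0.143). Of 14 resting fibroblast markers 3 were called higher, 1 without replicate 3 and none without replicates 2 and 3.

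Of 17 general macrophage genes 5 were called higher and 1 lower, 3, 2 and 1 higher without replicate 3 of day 2, replicate 5 of day 2 and replicate 3 of day 4. Without replicates 2 and 3, 1 was called in each direction. Cybb, the catalytic subunit of the phagocyte NADPH oxidase, rose by 0.77 ± 0.18 (edgeR adjusted p = 0.00191; 0.58 without replicates 2 and 3). Fcer1g, the Fc receptor gamma chain, went from 17.1, 21.1, 19.9, 16.0 and 16.1 CPM to 8.37, 13.6, 17.3, 9.85 and 10.99 CPM (-0.61 ± 0.19, adjusted p = 0.0194). The call of Fcer1g was lost without replicate 1 of day 4 (-0.51). Apoe, the lipoprotein of macrophages and other cells, rose by 1.06 ± 0.16 (adjusted p = 1.08e-05) without overlap of the days. Cd63, a tetraspanin of lysosomes, changed by -1.07 ± 0.13 as deposited and by -0.73 with its near-copy (adjusted p = 1.79e-07 and 2.08e-05). Lyve1, which marks lymphatic vessels and resident macrophages, was at 35.5 to 42.3 CPM at day 2 and at 21.98 to 39.7 CPM at day 4 and was not called (-0.38 ± 0.18, adjusted p = 0.121). Spp1, osteopontin, was lower in every day 4 library, with 46.8, 59.9, 28.4, 30.1 and 41.4 CPM at day 2 and 14.1, 23.5, 22.8, 25.1 and 16.7 CPM at day 4, yet was not called (log2 -1.03 ± 0.43, adjusted p = 0.0872).

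Chemokine genes changed singly. Ccl2, which recruits monocytes, went from 15.5, 19.9, 14.5, 7.03 and 12.8 CPM to 10.6, 6.66, 7.65, 4.52 and 3.33 CPM (log2 -1.11 ± 0.32, edgeR adjusted p = 0.0133). Cxcl1, which recruits neutrophils, went from 4.09, 7.15, 5.38, 3.01 and 5.64 CPM to 2.12, 2.36, 2.47, 2.71 and 3.11 CPM (-0.996 ± 0.28, adjusted p = 0.00864). Ccl8, another monocyte chemokine, rose from 5.69, 5.10, 5.81, 2.39 and 3.88 CPM to 5.72, 23.9, 25.4, 12.9 and 8.55 CPM (1.71 ± 0.37, adjusted p = 0.00126), highest in the lung-bearing libraries. None of the 3 was called without replicates 2 and 3, where the changes were -1.17 for Ccl2, -0.92 for Cxcl1 and 1.01 for Ccl8. Neutrophil genes had a median of -0.69 with 1 of 13 called higher, and none without replicates 2 and 3 or without any one of 6 libraries. S100a8, a neutrophil calcium-binding protein, ranged over 0.977 to 4.23 CPM at day 2 and over 0.777 to 1.83 CPM at day 4 (log2 -1.16 ± 1.14, adjusted p = 0.495).

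Of 16 complement genes 6 were called higher and 2 without replicates 2 and 3. C4b, component 4 of the classical pathway, was at 42.6, 44.5, 29.3, 28.6 and 22.5 CPM at day 2 and 72.6, 85.8, 205, 55.5 and 56.8 CPM at day 4, and Cfb, factor B of the alternative pathway, at 1.69, 1.22, 1.20, 0.695 and 0.529 CPM and 3.60, 5.70, 15.1, 2.41 and 2.55 CPM. Both had their highest value in replicate 3, did not overlap between days, and were still called without replicates 2 and 3 (edgeR log2 0.89 and 1.43, adjusted p = 0.0164 and 0.0398). Lymphocyte genes mostly followed the 2 lung-bearing libraries. Of 10 tested from a list of 17, 5 were called higher and 1 lower with all libraries, and none in either direction without both. Calls of a rise were 3 without replicate 2 of day 4, 2 without replicate 3 or replicate 4 of day 2, and 0 without replicate 3 of day 4. Cd79b, a chain of the B cell receptor, was at 0.636, 3.65, 7.65, 0.905 and 0.999 CPM at day 4 against 0.427 to 0.799 at day 2, and Ms4a1, the B cell antigen CD20, at 0.530, 3.33, 7.07, 0.101 and 0.777 CPM against 0.154 to 0.617. Without replicate 3 of day 4 neither gene was called, and Ms4a1 also not without replicate 2 of day 4 or replicates 3 or 4 of day 2 (changes without replicate 3 of day 4 of 1.25 and 1.66).

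Mitosis genes were rarely called in sham hearts. Of 24 mitosis genes 1 was called higher and none lower, with and without replicates 2 and 3 of day 4 (median 0.20), Bub1b, a kinase of the spindle checkpoint (1.23 ± 0.28, edgeR adjusted p = 0.00160). Without replicate 2 of day 2, 4 were called. Mki67, the proliferation antigen Ki-67, was at 9.86, 12.2, 4.44, 7.18 and 4.32 CPM at day 2 and 11.8, 9.24, 26.7, 8.65 and 10.7 CPM at day 4, and it was not called (0.77 ± 0.32, adjusted p = 0.0817) unless replicate 2 of day 2 was left out (1.0, adjusted p = 0.0319). Top2a, topoisomerase II of dividing cells, changed by 0.54 ± 0.33 (adjusted p = 0.246). In MI hearts all 24 mitosis genes were called higher, and for 7 of them the change was called smaller in sham than in MI, 3 without replicate 2 of sham day 2 and 16 without replicate 2 of MI day 2.

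Vascular genes gave 2 endothelial markers higher and 2 lower of 20 (1 higher without replicate 3 of day 2 or replicate 1 of day 4). These were 2 and 1 without replicates 2 and 3 of day 4. Of 12 pericyte and smooth muscle genes 5 were called higher, 2 without replicate 3 and 1 without replicates 2 and 3. Myh11, the smooth muscle myosin, went from 28.4, 28.8, 23.2, 26.0 and 26.9 CPM to 58.6, 42.3, 119, 34.1 and 65.6 CPM and was highest in replicate 3 (edgeR log2 1.22 ± 0.25, adjusted p = 6.87e-04; 0.99, adjusted p = 0.00536 without replicates 2 and 3). No gene was called among 9 markers of mesothelium, the cells that line the opened pericardium, with or without replicates 2 and 3 of day 4. The median was 0.29 with all libraries and -0.87 without these replicates. Their summed levels were 112 and 267 CPM, against 38.2 to 64.6 in the other day 4 libraries and 61.2 to 94.2 at day 2.

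Some clock genes were called lower. Of 6 genes on the list of the activating arm 2 were called lower, and 1 without replicates 2 and 3. One of the 2, Nfil3, opposes the D-box activators and so is not itself a gene of that arm. Nfil3 changed by -0.60 ± 0.16 on the log2 scale (edgeR adjusted p = 0.00485), and by -0.50 and not called without replicates 2 and 3 (adjusted p = 0.0559). Of 13 repressor and output genes 3 were, and 2 without them. Among them Tef, a D-box activator, changed by -0.52 ± 0.14 (adjusted p = 0.00575) and Cry1, a repressor of CLOCK and BMAL1, by -0.49 ± 0.12 (adjusted p = 0.00405). Arntl, which encodes BMAL1, differed by 0.04 ± 0.19, Dbp, a clock-driven output gene, by 0.10 ± 0.24, and Nr1d1, the repressor REV-ERBα, by 0.18 ± 0.17, and none was called (adjusted p = 0.888, 0.805 and 0.476). Per2, a repressor, was at 18.8, 12.2, 10.2, 7.57 and 6.08 CPM at day 2 and 12.5, 4.19, 7.18, 3.22 and 4.22 CPM at day 4 and was called only without replicate 1 of day 4 (-0.83 ± 0.42 with it, -1.26 without). The time of day of tissue collection is not given in the labels, and its part was not tested.

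Of 25 immediate early genes 4 were called lower and none higher, and 2 without replicates 2 and 3. Ier3, a short-lived stress response gene, went from 52.9, 49.3, 52.3, 51.6 and 38.4 CPM to 37.5, 27.7, 25.8, 25.8 and 21.98 CPM without overlap (edgeR log2 -0.84 ± 0.17, adjusted p = 6.23e-04). Fos, the classical member, ranged over 8.96 to 62.7 CPM at day 2 and over 10.1 to 34.0 CPM at day 4 and was not called (-0.76 ± 0.43, adjusted p = 0.207). Among 20 genes of cholesterol synthesis 5 were called higher and none lower, 3 higher and 1 lower without replicates 2 and 3, 2 without replicate 3 of day 4 and 3 without replicate 3 or replicate 5 of day 2, and Insig1, the sterol sensor that holds SREBP back, rose by 0.99 ± 0.18 (adjusted p = 1.26e-04). Of 18 splicing and cold-inducible genes 4 were called higher and 1 lower, with all libraries and without replicates 2 and 3. Srsf5, which binds pre-mRNA, rose by 0.92 ± 0.16 (adjusted p = 8.88e-05), and Tra2b, a splicing activator, changed by -0.83 ± 0.11 as deposited and by -0.38 with its near-copies summed (adjusted p = 1.60e-06 and 0.00792). Of 13 p53 targets 3 were called higher and 1 lower, and 2 and 1 without replicates 2 and 3.

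The largest falls by size were of another kind. Of the 10 largest falls among genes named by size, 8 were ribosomal protein genes, parts of the translation machinery made by every cell. Rps7 (ENSMUSG00000061477, chr12:28630854-28635953) was at 17.1, 19.0, 30.2, 21.2 and 27.8 CPM at day 2 and 1.70, 1.29, 0.589, 1.41 and 1.22 CPM at day 4, a change of -4.21 ± 0.26 on the log2 scale (edgeR adjusted p = 1.54e-13). Rpl7a, Rpl34, Rpl37a, Rps15a, Rpl21 and Rps3a1 had changes of -3.53, -3.67, -3.43, -3.05, -2.96 and -2.82. All 7 named here have processed pseudogenes of at least 95% identity, and reads of 1 sequence can be counted under either. The near-copy Gm9493 of Rps7 went from 43.9 to 163 CPM, and with it and the other near-copies summed into the gene Rps7 changed by 0.53 (adjusted p = 0.0469). The sums likewise gave 0.43 for Rpl34, 0.33 for Rps3a1, -0.13 for Rps15a, -0.64 for Rpl37a, -1.67 for Rpl7a and -2.13 for Rpl21.

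Over all 83 tested ribosomal protein genes, a list drawn up after the data were seen, 44 were called lower and 4 higher, with a median of -0.69, and 40 and 3 without replicates 2 and 3. With each near-copy summed into the gene it matches best, 14 were called lower and 10 higher, and the median was -0.02. Calls of a fall were more frequent among genes with low counts per length. That level is a mean over all libraries, including those of days 4 and 7, so that a fall itself lowers it. Under 100 CPM per kb of transcript 41 of 63 genes were called lower (median -1.05), and at or above it 3 of 20 (median -0.15). Rpl4, one of the latter, was at 495, 565, 662, 572 and 606 CPM at day 2 and 448, 529.9, 515, 542 and 485 CPM at day 4 and was not called (adjusted p = 0.114). The summed share of counts in ribosomal protein genes was 0.560 to 0.891% at day 2 and 0.528 to 0.675% at day 4. MI hearts had a median change of -0.46 over the same genes. Of 1151 annotated pseudogenes tested 17.4% were called higher and 40.7% lower, and the share of counts in pseudogenes was 5.22 to 7.39% at day 2 and 4.67 to 5.57% at day 4.

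**Figure D4:**
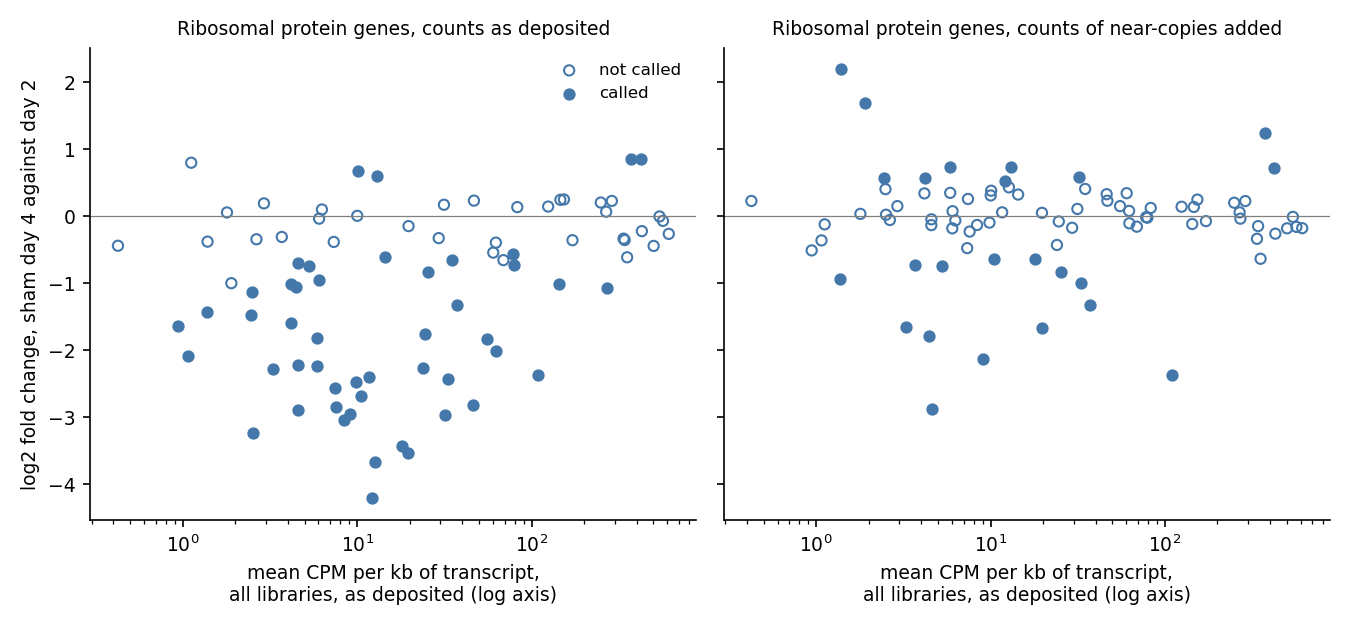
Log2 fold change of each ribosomal protein gene at sham day 4 against day 2 over its mean CPM per kb of transcript (logarithmic axis), as deposited on the left and with near-copies summed into the gene on the right. As deposited, the genes under 100 CPM per kb reach down to -4.21 with a median of -1.05, and with near-copies summed their median is -0.02.

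Among the 12013 tested genes with no near-copy, 258 rose and 47 fell by at least 2-fold. Among 1343 genes with a pseudogene near-copy, 74 fell by that much. Calls of any size in these 1343 were 177 higher and 222 lower (median -0.015). In the genes with no near-copy they were 1304 higher and 1184 lower (median 0.019). Fam221b (ENSMUSG00000043633, chr4:43659622-43669145) was at 86.3, 90.1, 122, 86.2 and 113 CPM at day 2 and 1.17, 1.93, 0.942, 0.804 and 1.55 CPM at day 4 (log2 -6.29 ± 0.19, edgeR adjusted p = 2.31e-21). It has no near-copy, was at 1.005 to 1.98 CPM at day 7 and changed by -5.39 in MI hearts. It overlaps Tmem8b on the opposite strand, which was at 52.6 and 48.2 CPM on average. Zbed5 (ENSMUSG00000034173, chr5:129895723-129903623), derived from a transposase, went the other way, from 22.3, 25.8, 27.7, 22.7 and 27.1 CPM to 236, 259, 234, 259.9 and 225 CPM, with 193 to 304 CPM at day 7 (3.25 ± 0.13, adjusted p = 4.58e-18). Its near-copies, the pseudogenes Chchd2-ps and Gm12350, went from 94.8 to 112 CPM and from 177 to 207 CPM, and with both added to Zbed5 the change was 0.91 (adjusted p = 2.01e-06). Rps12-ps3, annotated as coding in spite of its name, went from 7.20, 8.98, 21.8, 10.97 and 18.4 CPM to 70.3, 86.9, 72.7, 77.4 and 73.0 CPM and has 20 near-copies. In all 3 genes the day 7 libraries, which share the prefix of day 4, lay on the same side of day 2 as those of day 4. Day 7 also comes after day 4, so that day and batch cannot be told apart here either.

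In MI hearts 6150 genes were called between day 2 and day 4 (45.1%). The MI libraries are not compared in the sham contrast, but they share its batches, its fit and its estimate of spread. Of the sham calls 2036 were called there in the same direction, 68.2% of the sham calls and 33.1% of the MI calls, and 46 in the opposite direction. The difference between the sham and the MI change was called in 5.28% of all tested genes and in 6.03% of the sham calls. The number of genes with a called difference, 720, ranged from 399 without replicate 4 of MI day 2 to 1185 without replicate 3 of sham day 4. Of 17 called differences in named genes 11 were still called whichever one of the 20 libraries was left out, and the others are marked below or in the closing part.

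Fatty acid genes differed between the operations. Of 35, 26 were called lower and 1 higher in MI hearts, and for 20 the difference was called, each with the higher change in sham (19 to 23 with single libraries left out). Acot2 was at 74.8, 48.5, 83.8, 123 and 106 CPM in MI hearts at day 2 and 30.3, 53.7, 50.6, 41.9 and 40.2 CPM at day 4, a change of -1.11 against 1.04 in sham (difference 2.15 ± 0.37, edgeR adjusted p = 0.00175). Fabp3 had a difference of 1.07 ± 0.20 (adjusted p = 0.00250), Slc25a20 of 1.16 ± 0.19 (adjusted p = 7.01e-04) and Acadvl of 0.87 ± 0.20 (adjusted p = 0.0103). In 8 genes of the respiratory chain and citric acid cycle list the difference was called in the same direction (2 without replicate 2 of sham day 4, 17 without replicate 2 of MI day 4). Tnnt2 was at 8181 ± 1049.6 CPM (SD, n = 5) in MI hearts at day 2 and 8746 ± 664 at day 4, against the rise in sham (difference 0.78 ± 0.17, adjusted p = 0.00856).

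Matrix genes differed in the other direction. In MI hearts 28 of 30 were called higher, and for 10 the change was called smaller in sham, 3 without replicate 1 of sham day 2 and 17 without replicate 3 of sham day 4. Col1a1 rose by 2.59 in MI hearts against 1.09 in sham (difference -1.50 ± 0.44, edgeR adjusted p = 0.0455), and Col3a1 by 2.16 against 0.81 (-1.36 ± 0.39, adjusted p = 0.0396). Both calls were close to the threshold: that of Col1a1 was lost without any one of 13 of the 20 libraries and that of Col3a1 without any one of 12. Apoe rose by 2.09 against 1.06 (-1.03 ± 0.23, adjusted p = 0.00827). Nppa changed by 0.07 in MI hearts, where it was not called, against the fall in sham (-0.98 ± 0.26, adjusted p = 0.0238), a call that was lost without replicate 4 of sham day 4 or replicate 1 or 5 of MI day 4. Several clock genes differed as well: Dbp changed by -1.59 in MI hearts (difference 1.69 ± 0.36, adjusted p = 0.00629), Nr1d1 by -0.74 (0.92 ± 0.25, adjusted p = 0.0273) and Arntl by 1.10 (-1.06 ± 0.27, adjusted p = 0.0190). For Nr1d1 the call was lost without replicate 4 of either operation at day 2, replicate 2 or 4 of sham day 4 or replicate 1 of MI day 4.

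Snrpn, which encodes a spliceosome protein from an imprinted locus, moved in opposite directions in sham and MI hearts (ENSMUSG00000102252, chr7:59982495-60140219). It was at 60.1, 53.7, 57.9, 57.1 and 62.8 CPM at sham day 2 and 139, 171, 133, 163 and 107 CPM at sham day 4, without overlap, and rose 2.42-fold (log2 1.27 ± 0.18, edgeR adjusted p = 3.86e-06). In MI hearts it was at 113, 69.7, 126, 126 and 88.1 CPM at day 2 and 67.7, 75.5, 91.6, 79.7 and 70.9 CPM at day 4, a change of -0.54 (adjusted p = 0.0144). The difference was 1.81 ± 0.25 (adjusted p = 1.71e-04). At sham day 7 Snrpn was at 76.6 to 109 CPM. It shares transcripts with Snurf, so that the counts of the 2 genes cannot be fully separated, and it was named after its values were seen.

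**Figure D5:**
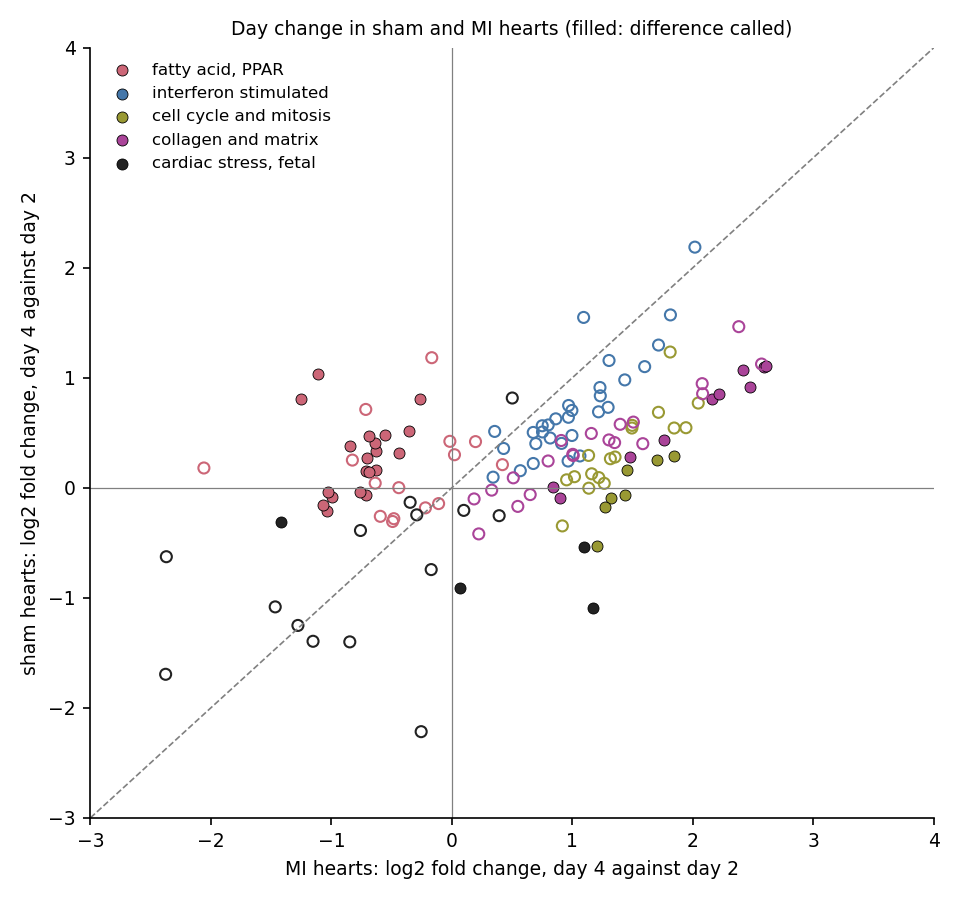
Log2 fold change of day 4 against day 2 in sham hearts (vertical axis) and in MI hearts (horizontal axis) for the genes of 5 lists, each point a gene, filled where the difference between the operations was called, with a dashed line of equal change. Acot2 (1.04 in sham, -1.11 in MI) lies at the upper left, and Col1a1 (1.09 and 2.59) lies below the dashed line.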

How the data were processed

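The values are raw counts per gene, which the authors deposited with 1 file per library. They were made with bcl2fastq 2.20.0 and featureCounts on GRCm38, per the submitters' processing notes, from directional paired libraries, per the labels' protocols. The sources used here do not give the aligner, the strand setting or the featureCounts version. Gene symbols, types and positions came from a GRCm38 annotation that names 97.5% of 43629 identifiers and 99.9% of the counts.

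Counts of all 30 libraries, in 6 groups of operation and day, were fitted in edgeR 4.0.16 under R 4.3.3. Genes were kept by filterByExpr at a minimum count of 10 and a total of 15, libraries scaled by TMM, and changes tested by the 2-sided quasi-likelihood F test with robust dispersion. Adjustment by Benjamini-Hochberg was over all 15537 genes tested, and only the 13631 protein-coding ones are reported. CPM were counts over the library total, errors of log2 fold changes are standard errors, and depth limits precision to the floors given in the report. Correlations of same-numbered libraries did not pair the days (values with the alternatives), so that no block was used. Simulated counts with known changes were used to test the fit.

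The libraries, the 48 gene lists of 815 genes and the rules were chosen with earlier results of these data known. Named genes are a panel of fixed genes whatever their result, the 10 largest rises and the 10 largest falls of genes that were called with and without replicates 2 and 3 of day 4, averaged 10 CPM or more and did not overlap between days, and called list genes averaging 1 CPM or more. Chosen after seeing the values were the lists of ribosomal protein and MHC class I genes, the genes Ankrd1, Fabp3, H2-K1, H2-D1, Snrpn, Rpl4, Tap1, Ifit3, Ifit2, Bst2, Col1a2, Irf7, B2m, Nlrc5, Serpina3n, Cryab, Hspa8, Nqo1, Slc25a20, Acadvl and Fcer1g, and Myl4 and Myl7. Near-copies are transcripts that blastn 2.17.0 aligned over 50% or more of the shorter one at 95% identity or more. Each pseudogene copy was summed into the 1 gene it matches best, or, per gene, every near-copy was added. Both sums and offsets for transcript length were alternatives chosen after seeing the data. The others were median-ratio factors, DESeq2 1.42.0, limma 3.58.1 voom with sample weights, other filters, a test against a 1.5-fold change, the replicate block, GC offsets, protein-coding genes only, other sets of libraries in the fit, and leaving out each library, the 2 libraries with lung and fat transcripts or all with lung transcripts, taken as a sum of Scgb1a1 and Sftpc of 50 CPM or more. A few genes that these rules name are not reported here. Promoter sequences were matched by symbol to a RefSeq table. Figures were drawn with matplotlib 3.10.9.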

Additional observations from a re-analysis of the deposited data

Results flagged for a closer look

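In a group of 5 libraries the highest or lowest value was marked where its gap to the next, divided by the range of the group, passed Dixon's 95% critical value of 0.71. This was applied to the 116 named genes at sham day 2 and day 4, 232 groups in all. It marked 26 of them (11.2%). The critical value stands for about 1 in 20 only where values are normally distributed, which was not tested for these CPM. Many of the genes were also named for their changes, so that 1 in 20 is no benchmark here. Libraries share their deviations over many genes, so that the groups are not independent.

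Replicate 1 of sham day 4 was the high library in 14 of the 26. It held 921 CPM of Hba-a1, 809 of Hba-a2, 1333 of Hbb-bs, 327 of Hbb-bt, 95.3 of Alas2 and 7.95 of Slc4a1, all genes of the red cell lineage. It also led in the fatty acid and uncoupling genes Pdk4 with 1966 CPM, Acot2 with 275 and Ucp3 with 125, in the chaperones Hspa8 with 465, Dnaja1 with 28.5 and Hspa1a with 11.9, in Herpud1 with 173 and in Mt2 with 25.5. Replicate 3 of day 4, a library with lung and fat transcripts, was the high one in C4b with 205 CPM, Cfb with 15.1, Eno1 with 35.6, Mki67 with 26.7 and Tap1 with 27.6. Replicate 5 of day 4 was high in Fos with 34.0 CPM. At day 2, replicate 2 was high in Myh7 with 1035 CPM and in Serpina3n with 269.8, replicate 1 in Ltbp2 with 9.59 and in Nlrc5 with 5.77, and replicate 4 in Scgb1a1 with 0.618. Replicate 5 of day 2 was low in Ier3 with 38.4 CPM.

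The change from day 2 to day 4 differed between sham and MI hearts in 17 of the 116 genes (edgeR interaction contrast). As a log2 difference, sham minus MI, it was positive for Acot2 (2.15), Snrpn (1.81), Dbp (1.69), Pfkfb1 (1.29), Slc25a20 (1.16), Fabp3 (1.07), Nr1d1 (0.92), Acadvl (0.87), Tnnt2 (0.78) and Klf15 (0.74). It was negative for Col1a1 (-1.50), Col1a2 (-1.50), Col3a1 (-1.36), Arntl (-1.06), Apoe (-1.03), Nppa (-0.98) and Cry1 (-0.61). The call of Cry1 was lost without any one of 14 of the 20 libraries and that of Col1a2 without any one of 9.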

How the results depend on the processing

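The count of protein-coding genes called between sham day 2 and day 4 was 2985, and 217 against a 1.5-fold change. It was 1654 without the 2 libraries with lung and fat transcripts (1550 shared with the 2985) and 1535 without all libraries with lung transcripts, and 2161 to 2968 when single libraries were left out. With only the sham libraries of days 2 and 4 in the fit it was 2733 (2454 shared). In MI hearts it was 6150, 922 against a 1.5-fold change, and 5312 to 6182 with single libraries left out. For the difference between sham and MI it was 720, against 1167 by DESeq2, 1763 by limma voom with sample weights, 457 with no filter on low counts and 19 against a 1.5-fold change, and 399 to 1185 with single libraries left out. The cause was not tested.

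Of the 98 named genes called in sham hearts, 0 lost the call by DESeq2, with median-ratio factors or with GC offsets, 9 by voom, 2 without a filter, 51 against a 1.5-fold change, and 18 without the 2 libraries. With near-copies summed 6 lost the call or turned, and 7 with every near-copy added. Replicate numbers did not pair the days: same-numbered libraries correlated at -0.21 to 0.21, 2 of 5 pairs over 0.1, and 1 of 5 day 2 libraries correlated best with its own number. With the replicate block the counts were 2866, 6089 and 701, and 1 named gene lost its call.

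With near-copies summed or every near-copy added, Rps7 (0.53 both ways), Rpl34 (0.43) and Rps3a1 (0.33) turned positive, and with every near-copy added so did Eno1 (0.60). Without the 2 libraries and without all libraries with lung transcripts, Scgb1a1 (-1.92 and -1.92), Sftpc (-3.32 and -3.34), B2m (-0.070 and -0.070), Dbp (-0.10 and -0.10) and Fkbp5 (-0.13 and -0.13) turned negative. The small changes of genes that were not called also turned with other choices. Dbp was at -0.012 with GC offsets, -0.0023 with the block added, and -0.044 to 0.33 with single libraries left out. Fkbp5 was at -0.029 by voom, -0.010 with no filter, -0.015 with the block, -0.0044 over protein-coding genes only, -0.011 with GC offsets, -0.031 with both, -0.035 with length offsets, and -0.077 to 0.11 with single libraries left out. With length offsets Atp2a2 was at -0.0044. With single libraries left out Atp2a2 was at -0.012 to 0.098, Arntl at -0.070 to 0.19 and Pdk4 at -0.28 to 0.92.

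At this depth a count of 0 does not exclude a level up to the floor of 0.228 to 0.353 CPM. Day and the batch of libraries cannot be told apart under any setting, since all day 2 libraries carry a prefix of their own.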

Other observations

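Counts of other lists stand beside 11.4% of all genes called higher and 10.5% lower. Of 16 genes of branched-chain amino acid breakdown, an alternative fuel of the heart, 3 were called higher (median log2 fold change -0.02), and 1 without single libraries of either day. Of 14 genes of muscle atrophy and autophagy 1 was called higher and 2 lower (median -0.14), one of the falls being Klf15. Of 19 ion channel and connexin genes 1 was called higher and 2 lower (median 0.04), and 0 in either direction without replicate 3 of day 2 or replicate 1 of day 4. Of 16 genes of the ATF4 amino acid response 1 was called higher (median 0.09).

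Among cell type lists not described above, 1 of 13 inflammatory monocyte genes (median 0.43), 2 of 14 resident macrophage genes (median 0.20) and 1 of 17 DNA replication genes (median 0.27) were called higher and none lower. Without replicates 2 and 3 of day 4 none of these was called higher, and 1 resident macrophage gene was called lower (median of that list -0.25).

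The day change varied with base composition over all tested protein-coding genes. The median was -0.08 in the fifth of genes with the lowest GC content of the transcript and 0.12 in the fifth with the highest, and in MI hearts -0.07 and 0.15. The 42 genes with transcripts under 500 bases had a median of -0.28.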
